A study of Mus musculus with 4 samples.

Results

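The genes described here are 32 mouse genes of the unfolded protein response and of protein folding in the endoplasmic reticulum (ER), taken from a list of symbols. A gene entered if a probe's RefSeq accession on the array maps to its symbol, and where a gene had several, the brightest was used. All 32 had a probe, out of 21154 genes named on the array, and all 32 were among the 13565 genes tested. The RNA is total RNA of mouse MSCs (mesenchymal stromal cells) in primary culture, at passage 5 (p5), carrying a short hairpin RNA delivered by retrovirus. The control array held cells labelled shControl (n = 1), and 3 arrays held cells labelled shlSLR no.1, no.2 and no.3 (n = 3). Each of these hairpins targets another stretch of Islr, which encodes the secreted and surface protein Meflin, and they are called hairpins 1, 2 and 3 here. All 4 groups share the retroviral delivery and the culture. Whether the cultures derive from separate MSC preparations is not stated in the labels, nor is the animals' strain or age, and p-values measure only the spread between these samples, which may be technical.

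The ER folds secreted and membrane proteins, and an excess of unfolded chains is sensed by 3 membrane proteins, encoded by Ern1, Atf6 and Eif2ak3. The cleaved Atf6 protein and the spliced product of Xbp1, made by the Ern1 protein, mainly raise chaperone and degradation genes. The Eif2ak3 protein (PERK) phosphorylates the initiation factor eIF2, which slows translation in general while favouring that of Atf4. The Atf4 protein then raises genes of amino acid supply and stress, and other eIF2 kinases that sense amino acid shortage, viral RNA or haem can feed the same step without any load in the ER. MSCs secrete large amounts of collagen and other matrix, so the folding genes are highly active in such cells.

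The main finding concerns the 2 arms. On hairpins 2 and 3, the Atf4 branch median lay above the control array while the ER chaperone median lay closer to it. On hairpin 1 both medians lay close to it. The difference on hairpin 2 was 1 of size and not of sign: 5 of 7 Atf4 branch members and 11 of 15 chaperones were above the control there. On hairpin 3 it was 7 of 7 and 8 of 15. Over all genes tested it was 6822 of 13565 on hairpin 2 and 7468 on hairpin 3. Some promoters of the 2 groups hold different sequence elements. The groups were chosen by role, so this is background and no support for the array values. As examples, 4 promoters are printed first. They run from 250 bases before to 50 bases after the start site, 5′ to 3′ on the gene's strand, as RefSeq gives them for build GRCm38.p6. Hspa5 lies at chr2:34771840-34772139 on the + strand, and Hsp90b1 at chr10:86705395-86705694 on the - strand. Trib3 lies at chr2:152344011-152344310 and Asns at chr6:7693160-7693459, both on the - strand. Capitals mark the fixed bases of an ER stress response element (ERSE) in the first pair, chosen as the best known ER chaperones. In the second pair, from the Atf4 branch members at least 1.5-fold higher on both hairpins 2 and 3, they mark the core of a C/EBP-Atf response element (CARE).
Hspa5: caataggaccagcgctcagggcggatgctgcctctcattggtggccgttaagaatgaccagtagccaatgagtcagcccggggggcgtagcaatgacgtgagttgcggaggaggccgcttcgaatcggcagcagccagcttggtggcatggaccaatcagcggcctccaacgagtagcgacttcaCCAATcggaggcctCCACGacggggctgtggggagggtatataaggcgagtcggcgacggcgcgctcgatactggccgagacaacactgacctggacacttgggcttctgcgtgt
Hsp90b1: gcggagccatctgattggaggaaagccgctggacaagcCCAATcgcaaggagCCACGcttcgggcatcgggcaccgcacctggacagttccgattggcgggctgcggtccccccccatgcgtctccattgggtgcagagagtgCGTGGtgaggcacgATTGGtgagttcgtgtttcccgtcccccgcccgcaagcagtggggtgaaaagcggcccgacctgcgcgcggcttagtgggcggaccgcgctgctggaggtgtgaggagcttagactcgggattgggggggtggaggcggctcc
Trib3: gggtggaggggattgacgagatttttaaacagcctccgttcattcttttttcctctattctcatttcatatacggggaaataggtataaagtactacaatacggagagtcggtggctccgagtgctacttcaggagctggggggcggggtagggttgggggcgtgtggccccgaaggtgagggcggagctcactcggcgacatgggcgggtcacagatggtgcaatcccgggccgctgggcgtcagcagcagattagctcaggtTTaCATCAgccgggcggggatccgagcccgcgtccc
Asns: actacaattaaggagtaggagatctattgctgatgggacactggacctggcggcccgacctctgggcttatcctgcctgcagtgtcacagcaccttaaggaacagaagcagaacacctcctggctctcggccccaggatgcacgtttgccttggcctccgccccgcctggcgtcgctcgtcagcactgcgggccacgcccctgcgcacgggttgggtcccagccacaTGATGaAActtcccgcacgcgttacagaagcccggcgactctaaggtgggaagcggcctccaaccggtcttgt

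The ERSE searched was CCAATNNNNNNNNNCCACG and the CARE core was TGATGNAA, each on both strands, and the patterns share no fixed stretch. RefSeq's table held a promoter for 29 of the 32 members. The ERSE was in 7 of 13 promoters of chaperone and folding genes (Hspa5, Hsp90b1, Calr, Canx, Pdia6, Dnajc3 and Creld2) and in 0 of 7 of the Atf4 branch. Over 27025 genes with a promoter of this length, 37 held it (0.137%). The CARE core was in 4 of 7 promoters of the Atf4 branch (Atf3, Trib3, Chac1 and Asns) and in 0 of 13 of the chaperones, against 1219 of 27025 (4.51%). Among the other members, Syvn1 held an ERSE, and Herpud1 held a CARE core and the related element ATTGGNCCACG (ERSE-II), which Dnajb11 held too and 12 of 27025 genes hold. The element TGACGTGG (UPRE) was in 0 of 29 members' promoters and in 193 of 27025. A match is a description of these letters in this window and not a bound site.

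**Figure D1:**
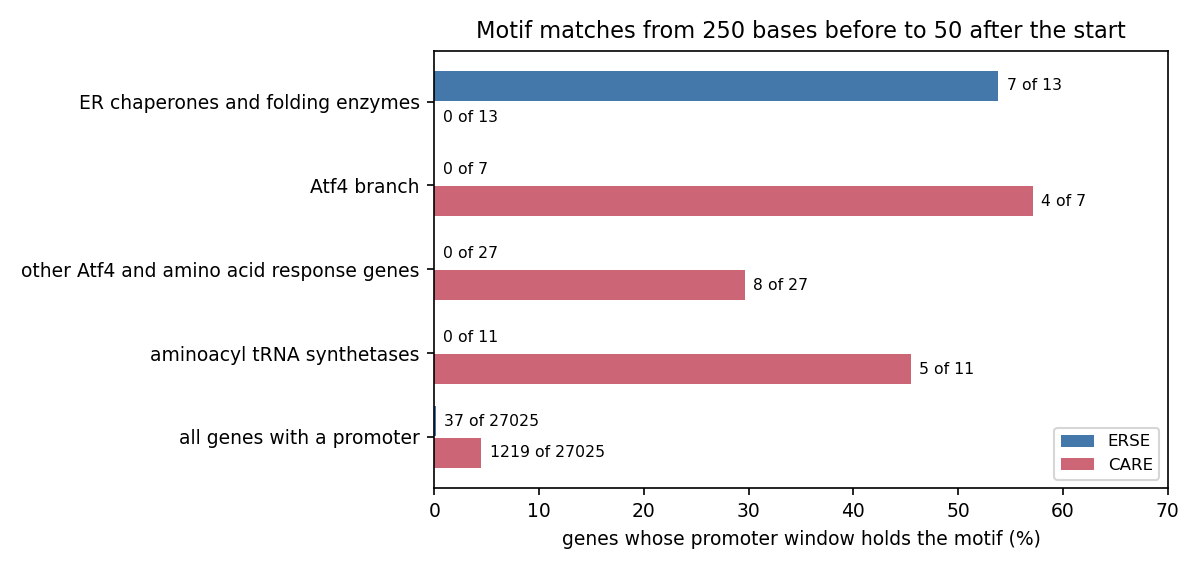
Share of genes (horizontal axis, percent) whose promoter window holds an ERSE (blue) or a CARE core (red), by group, with the number of genes beside each bar. The ERSE bar is long for the chaperones (7 of 13) and the CARE bars for the Atf4 branch (4 of 7) and the aminoacyl tRNA synthetases (5 of 11), while over all genes both are short.

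The 75th percentile of the signal, used to scale the arrays, lay between 415 and 442 on the 4 arrays, and 49.4% to 53.8% of features were well above background. Of 15 stromal marker genes, 15 were above background on all 4 arrays, with a summed signal between 487445.0 and 597605. Of 12 haematopoietic and macrophage markers 6 were above background on none of the arrays, among them Ptprc, Adgre1 and Spi1, and 6 on all, such as Itgam and Csf1r. Of 8 endothelial markers 5 were on none, with Cdh5 and Emcn among them, and 2, Kdr and Pecam1, on all. Kdr had signals of 3532 in the control and 3303, 3251 and 3357 with hairpins 1 to 3. Vwf was above background on hairpins 1 and 3 only. Of 7 epithelial markers 3 were on none, with Epcam and Cdh1 among them, and 1, Krt18, on all. Krt5, Krt14 and Cldn4 were above background on some arrays only. Of 6 adipocyte markers 4 were on none, and the summed signal of the list, which comes from Pparg and Fabp4, was 981 in the control and 2222, 1419 and 3620 with hairpins 1 to 3. In bulk RNA, a change in the share of a cell type and a change in RNA per cell cannot be told apart. The Islr signal of the control array was 454. Hairpin 2 left 15.8% of it after scaling. Hairpins 1 and 3 left it below background, at most 4.89% and 3.38% as measured against the lowest signal called above background there.

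Differences below are log2, hairpin minus control after scaling each array by its 75th percentile, and each mean ± SD covers the 3 hairpins (n = 3), with 1 control array to compare to. Signals are the scanner software's processed intensities before that scaling, and they do not compare genes with each other. The 75th percentile was 442 on the control and 415 on hairpin 1. The order of close signals can therefore differ from that of the scaled differences, which are the ones that compare arrays. All 32 members were well above background on all 4 arrays, with signals from 120.0 to 147869.7. With limma over all 13565 genes and Benjamini-Hochberg adjustment, 0 of 32 members passed an adjusted p of 0.05 (smallest adjusted p = 0.964). The background was 0% of genes called higher and 0.346% called lower. At an unadjusted p under 0.05, limma gave 206 genes higher, 449 lower and 0 members. The control array has no replicate, and limma takes the spread between hairpins as its error, so a gene that differs on some hairpins and not on others has a large error by construction.

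The Atf4 branch came first in size. Atf4 encodes the transcription factor at the head of the branch, whose amount is known to be set largely by translation. Its signal was 95468 in the control and 99066, 139969.8 and 147869.7 with hairpins 1 to 3. Hairpins 2 and 3 were thus above the control and hairpin 1, at 0.58 and 0.66, and hairpin 1 was at 0.15 (mean 0.46 ± 0.28, limma adjusted p = 0.964). A separate, dimmer probe for Atf4 gave the same order, at 0.23, 0.69 and 0.84.

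Trib3, a pseudokinase gene that Atf4 raises and whose product dampens the response, had signals of 8952 in the control and 8427, 17857 and 18897 with hairpins 1 to 3. It stood at the control level on hairpin 1 (0.01) and was 2.03-fold and 2.15-fold higher on hairpins 2 and 3 (mean 0.71 ± 0.61). Atf3, a stress transcription factor gene, had signals of 316, 259.6, 627 and 746 in the same order. Hairpin 1 lay below the control (-0.19), and hairpins 2 and 3 were 2.02-fold and 2.41-fold above it (mean 0.70 ± 0.78).

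Asns, the gene of asparagine synthetase, had signals of 32442 in the control and 36180.0, 53607 and 57788 with hairpins 1 to 3. All 3 hairpins were above the control, by 0.25, 0.75 and 0.86 (mean 0.62 ± 0.33, limma adjusted p = 0.964). Chac1, the gene of a glutathione-degrading enzyme, had signals of 12146, 11152, 20353 and 21023. Here too hairpin 1 matched the control (-0.03), with hairpins 2 and 3 at 0.77 and 0.82 (mean 0.52 ± 0.48).

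The other members of the branch did not share that order. Ddit3, the gene of the pro-apoptotic factor CHOP, had signals of 3532 in the control and 3773, 2902 and 4694 with hairpins 1 to 3. It was lowest on hairpin 2 (-0.26) and highest on hairpin 3 (0.44), with a mean of 0.12 ± 0.35. Ppp1r15a, the gene of GADD34, which brings a phosphatase to eIF2 and ends the response, had signals of 6551, 5555, 6163 and 9068. It was above the control on hairpin 3 alone (0.50), with hairpins 1 and 2 at -0.14 and -0.06. On hairpin 3 all 7 members of the branch had their highest signal after scaling among the 4 arrays.

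**Figure D2:**
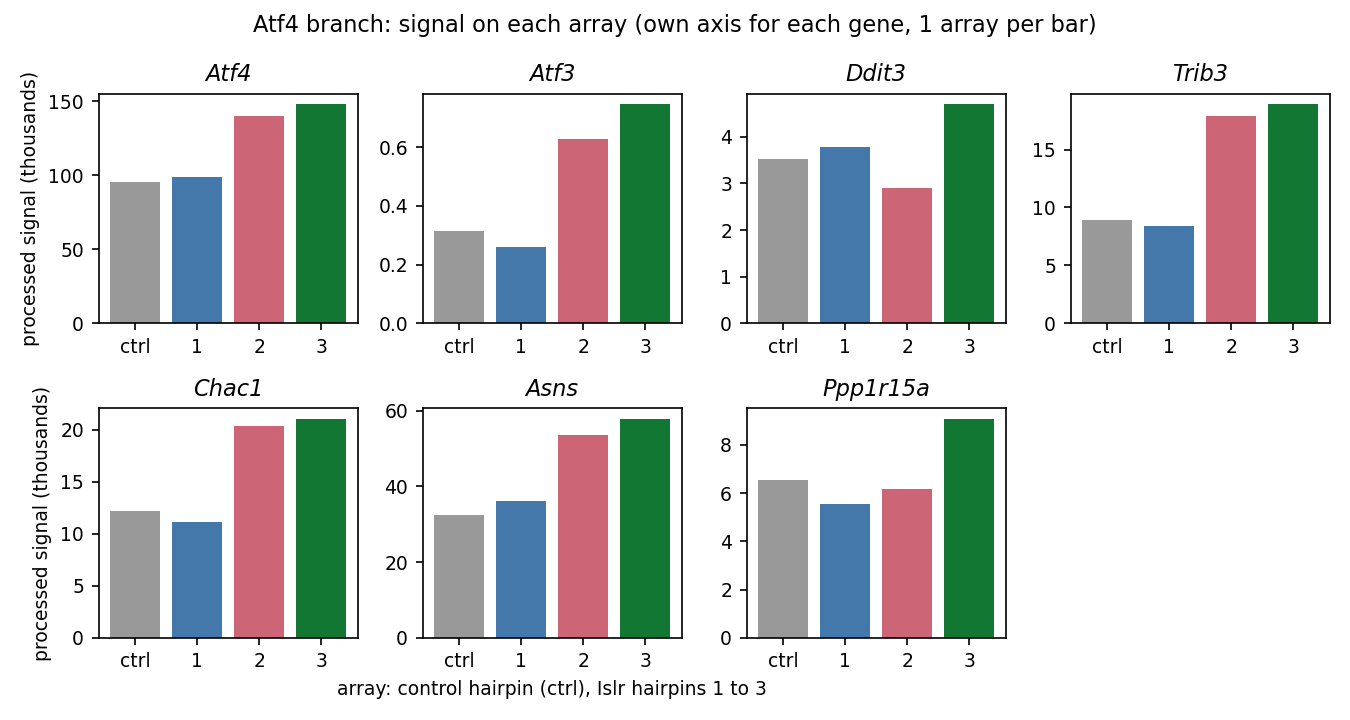
Processed signal before scaling (vertical axis, from 0, with a separate axis for each gene) of the 7 Atf4 branch genes. Bars are the control array (grey) and hairpin arrays 1 to 3, 1 array per bar and so without error bars. Atf4, Atf3, Trib3, Chac1 and Asns show the control and hairpin 1 together below hairpins 2 and 3, while Ddit3 and Ppp1r15a are highest on hairpin 3 only.

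A rule of size was set beside the test: at least 1.5-fold from the control, which is 0.58 in log2. On hairpin 1, 0 of 7 Atf4 branch members were that much higher, where 4.05% of all genes were. On hairpin 2 it was 4 of 7 (Atf3, Trib3, Chac1 and Asns) against 7.28%, with Atf4 just under the line at 1.49-fold. On hairpin 3 it was 5 of 7, the same 4 and Atf4, against 9.68%. Atf3, Trib3, Chac1 and Asns are also the branch members with a CARE core in the promoter window. The motifs were chosen after values were seen, and bases outside the window were not searched. A link between the core and the size of a difference was not tested. A rule of 1.25-fold gave 0, 5 and 7 of 7 on hairpins 1 to 3, against 11.6%, 17.9% and 24.2% of all genes. A rule of 2-fold gave 0, 2 and 2 of 7 (Atf3 and Trib3), against 1.46%, 1.88% and 3.17%. The 3 differences share the control array, but the hairpins can be set against each other without it. Between hairpins 3 and 1, 7 of 7 members were higher on hairpin 3, with a median of 0.64, and 5 of 7 by at least 1.5-fold, against 8.35% of all genes. Between hairpins 2 and 1, 6 of 7 were higher on hairpin 2 (median 0.50), 3 of them by at least 1.5-fold against 8.18% of all genes. Over all genes, 7786 of 13565 were higher on hairpin 3 than on hairpin 1 (median 0.06). For hairpin 2 against hairpin 1 it was 7254 of 13565 (median 0.03). Both contrasts share the hairpin 1 array, so anything particular to that array enters both. Hairpins 3 and 2 lay closer, with a median of 0.11 and 1 of 7 members, Ddit3, at least 1.5-fold higher on hairpin 3, against 9.72%.

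The signal of Islr did not order the arrays in the same way. Hairpins 1 and 3 both left Islr below background but differed in the Atf4 branch, and hairpin 2, which left the most Islr, lay near hairpin 3. Islr on hairpins 1 and 3 is known only as an upper bound, from 1 array each. Its protein was not measured, and the part of Islr in the result was not tested. The share of features above background was 49.4%, 51.3% and 53.8% on hairpins 1 to 3, against 50.9% on the control array, and its part in the result was not tested. Some stromal markers did have hairpins 2 and 3 apart from the control and hairpin 1. Pdgfra, a receptor gene used to mark stromal cells, had signals of 9101, 7944, 4024 and 3955 (control, then hairpins 1 to 3), and Pdgfrb, its relative, 5709, 5166, 2538 and 3788. Both were lower on the arrays where the Atf4 branch was higher. Not all markers followed that order: Nt5e and Ly6a were lowest on hairpin 1, and Vcam1 and Thy1 highest there. Of the 15 markers, 3 were at least 1.5-fold lower on each hairpin, among them Col3a1 on all 3. On hairpins 1 to 3, 2, 2 and 1 were that much higher, with Thy1 among them on all 3. Of all genes, 8.38%, 9.35% and 11.4% were that much lower on hairpins 1 to 3, and 4.05%, 7.28% and 9.68% higher. Col3a1, a fibrillar collagen gene, had signals of 40298, 20147, 22493 and 7920. The part of these markers in the result was not tested.

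Chaperone and folding genes were the larger group, with 15 members. Hspa5, the gene of BiP, the ER Hsp70 that holds the sensors inactive, had signals of 52197 in the control and 47879.7, 60760.4 and 50047 with hairpins 1 to 3. Only hairpin 2 stood apart, at 0.24, with hairpins 1 and 3 both at -0.03 (mean 0.06 ± 0.16, limma adjusted p = 0.991). Hsp90b1, the gene of the ER Hsp90 GRP94, had signals of 41442, 36918, 49118 and 38434, again highest on hairpin 2 (-0.07, 0.27 and -0.08). Pdia6, a disulfide isomerase gene, was also highest on hairpin 2, at -0.11, 0.14 and -0.03, and its dimmer probe gave -0.04, 0.23 and 0.10, with hairpin 3 above the control too.

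Genes of the lectin cycle, which holds glycoproteins until they fold, differed little. The signal of Calr, the calreticulin gene, was 19557 in the control and 17324, 20112 and 16361 with hairpins 1 to 3 (-0.08, 0.06 and -0.23). Canx, the gene of its membrane-bound relative calnexin, was above the control on all 3 at 0.18, 0.17 and 0.26. Pdia3, whose isomerase works with both, was at -0.02, -0.03 and -0.07.

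Hyou1 had the highest mean of the group. It encodes the large ER Hsp70 that exchanges nucleotide on BiP, and its probe was dim, with signals of 120.0 in the control and 138, 179 and 147 with hairpins 1 to 3. All 3 hairpins were above the control, at 0.29, 0.60 and 0.32 (mean 0.40 ± 0.17, limma adjusted p = 0.964). Pdia4, another disulfide isomerase gene, had signals of 1934, 2178, 2291 and 2706, and Dnajb11, the gene of a BiP co-chaperone, 2884, 3293, 3396 and 3908. Both were above the control on all 3 hairpins and highest on hairpin 3 (means 0.35 ± 0.14 and 0.34 ± 0.11). Creld2, the gene of an ER-resident ER stress marker, was printed on each array as 10 spots, which puts a figure on spot error. Its signal was 11342 in the control and 12708, 13324 and 13506 with hairpins 1 to 3. The 10 spots of an array had an SD of 0.04 to 0.05 in log2, and the 3 differences were 0.26, 0.26 and 0.28. The step from the control was thus several times the spot SD, but spots of 1 array share 1 RNA and labelling, and limma did not call the gene (adjusted p = 0.964).

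P4hb had the lowest mean, -0.33 ± 0.24. It encodes protein disulfide isomerase, which is also the β subunit of collagen prolyl hydroxylase, and its signal was 19193 in the control and 14915, 12506 and 17134 with hairpins 1 to 3. The control array was the highest of the 4, and hairpin 2 the lowest at -0.59. Dnajc3, the gene of the PERK inhibitor and co-chaperone P58IPK, had signals of 1472, 1088, 1283 and 1049.6 and was also highest on the control array (-0.34, -0.17 and -0.46). Manf, the gene of a secreted ER stress factor, had the widest range of the group. Its signal was 5008 in the control and 2184, 6114 and 5106 with hairpins 1 to 3, so that hairpin 1 alone was low, at -1.10. Its mean of -0.25 ± 0.75 turned to 0.18 without hairpin 1. Dnajb9 (0.03, -0.08 and 0.27), a co-chaperone gene, and Sdf2l1 (0.03, 0.08 and 0.00), whose product binds such co-chaperones, completed the group.

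In all, 6 of 15 chaperone and folding genes were above the control on all 3 hairpins and 3 below it, against 27.6% and 24.6% of all genes tested. By the rule of size, 0, 1 and 0 were at least 1.5-fold higher on hairpins 1 to 3, the 1 being Hyou1, and 1, 1 and 0 at least 1.5-fold lower, Manf and P4hb. A rule of 1.25-fold gave 0, 1 and 2 of 15 higher, and a rule of 2-fold gave 0 on each hairpin. Of all genes, 4.05%, 7.28% and 9.68% were at least 1.5-fold higher on hairpins 1 to 3. At 1.25-fold the share was 11.6%, 17.9% and 24.2%, and at 2-fold 1.46%, 1.88% and 3.17%. For genes at least 1.5-fold lower the background was 8.38%, 9.35% and 11.4% on hairpins 1 to 3. Over all 32 members, 9 were above the control on all 3 hairpins and 3 below it, and 20 went both ways.

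**Figure D3:**
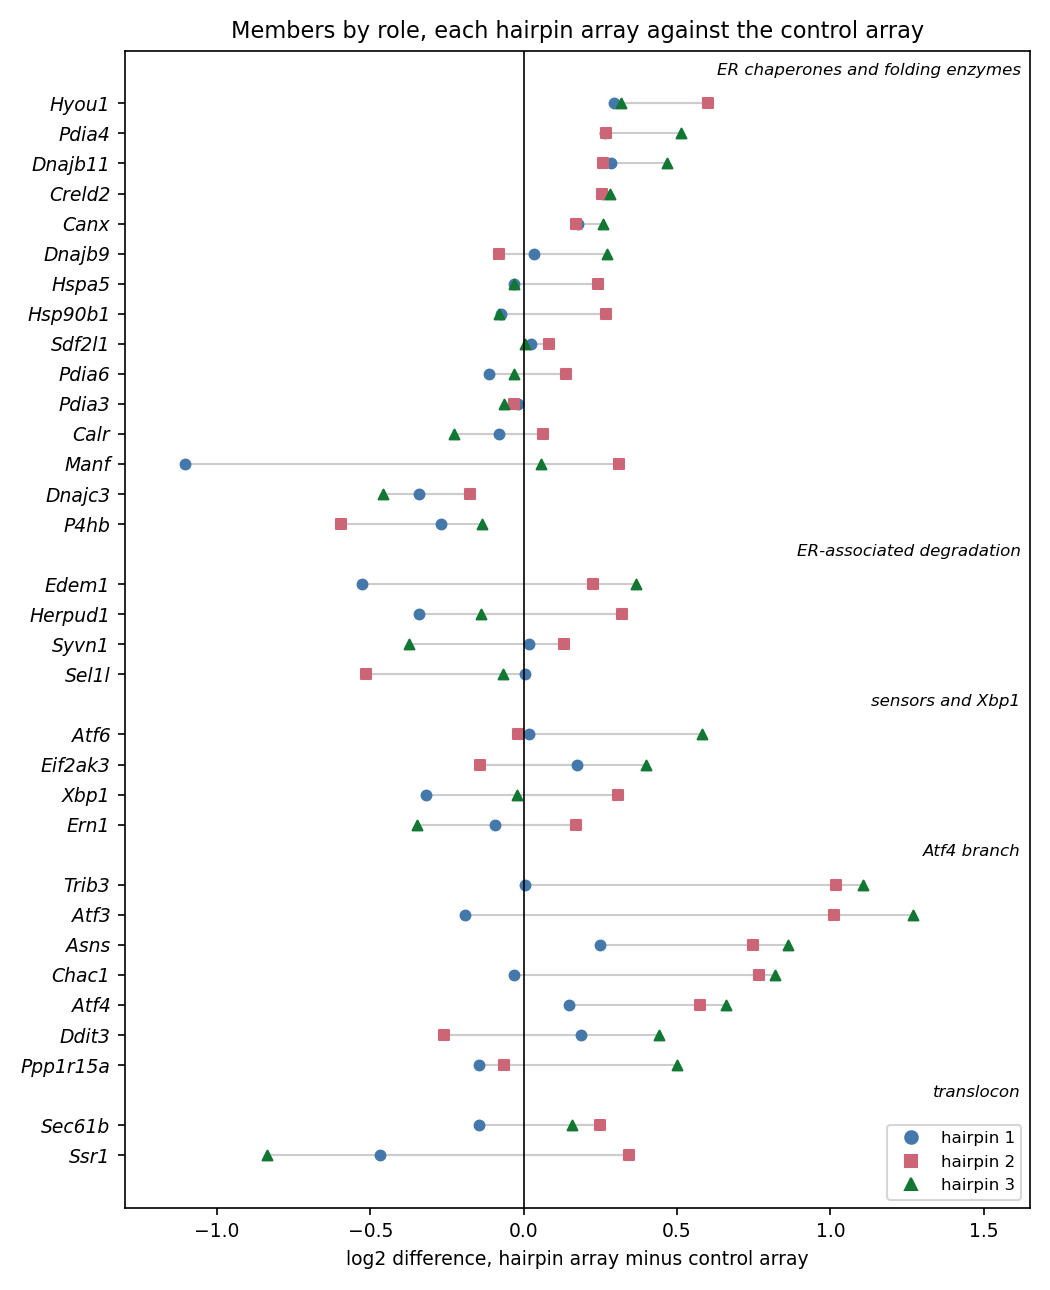
Log2 difference from the control array (horizontal axis) of each of the 32 members on hairpin 1 (blue circles), hairpin 2 (red squares) and hairpin 3 (green triangles), grouped by role and ordered by the mean. Most points lie within 0.5 of 0; Trib3, Atf3, Asns, Chac1 and Atf4 have hairpins 2 and 3 together on the right, and Manf has hairpin 1 alone on the left.

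ER chaperones and the Atf4 branch were set against each other on each array. A scale factor of the control array enters both groups alike, but its level of each gene enters only that gene's differences. The gap between the groups thus still rests on 1 control array. On hairpin 1 the median difference was -0.02 for the chaperones and 0.01 for the Atf4 branch, with -0.01 over all genes tested. On hairpin 2 it was 0.17 and 0.75, and 0.002 over all genes. On hairpin 3 it was 0.003 and 0.82, and 0.05 over all genes. The Atf4 branch thus lay above the chaperones by 0.02, 0.58 and 0.82 on hairpins 1 to 3, and by 0.48 for the mean of the hairpins. For that mean the Atf4 median was 0.52 and the chaperone median 0.04. Without hairpin 1 they were 0.79 and 0.10, without hairpin 2 0.40 and -0.03, and without hairpin 3 0.37 and 0.05. Of the 7 Atf4 branch members, 0, 4 and 5 were above the highest of the 15 chaperones on hairpins 1 to 3. Hyou1 was that highest chaperone on hairpins 1 and 2, and Pdia4 on hairpin 3. The groups were chosen by role with earlier results known, so these medians are a description with no test. Across all other settings tried that keep a hairpin, the Atf4 median ran from 0.56 to 0.75 on hairpin 2, from 0.72 to 0.86 on hairpin 3 and from 0.01 to 0.09 on hairpin 1, and the chaperone median stayed between -0.02 and 0.19 on every hairpin.

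**Figure D4:**
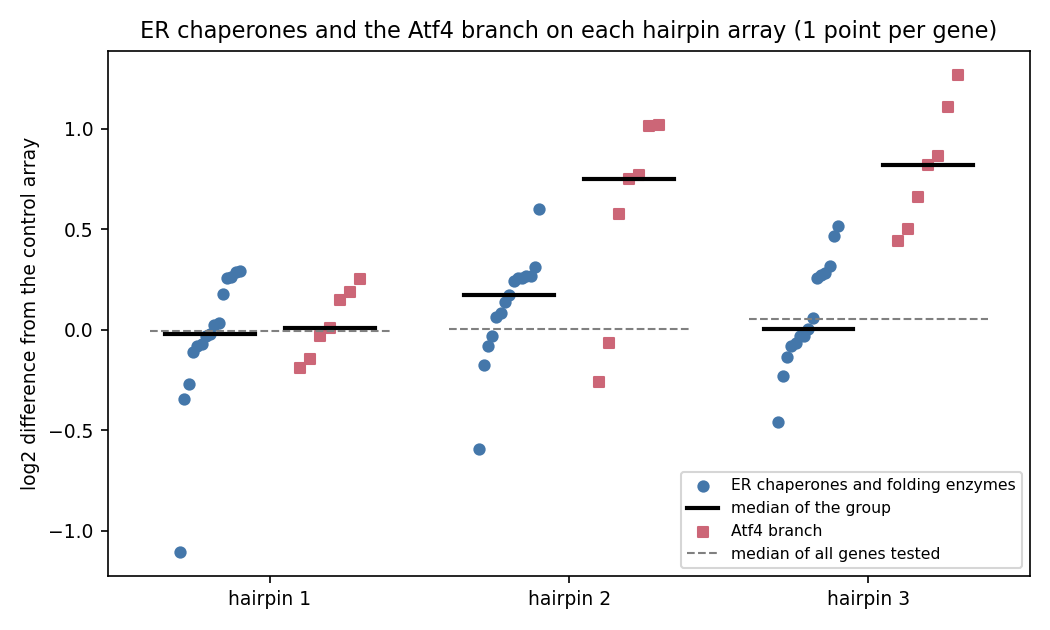
Log2 difference from the control array (vertical axis) of each of 15 ER chaperones (blue circles) and 7 Atf4 branch genes (red squares) on hairpins 1 to 3, with group medians as black lines and the median of all genes tested as a dashed line. The groups overlap on hairpin 1, and most of the Atf4 branch lies above the chaperones on hairpins 2 and 3.

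The sensors and Xbp1 differed in the array where they were highest. Eif2ak3 and Atf6 were highest on hairpin 3, and Ern1 and Xbp1 were highest on hairpin 2. Eif2ak3, the gene of PERK, had signals of 1065 in the control and 1126, 949 and 1376 with hairpins 1 to 3 (0.17, -0.14 and 0.40, mean 0.14 ± 0.27). Hairpin 2, where the Atf4 branch was high, had the lowest signal of this gene. Atf6 had signals of 256, 243, 249 and 376, with hairpin 3 alone above the rest at 0.58. Ern1, the gene of IRE1α, had signals of 329, 289, 364 and 253 (-0.09, 0.17 and -0.35). Xbp1 had signals of 19193, 14417, 23349.5 and 18517, with hairpin 1 below the control (-0.32), hairpin 2 above it (0.31) and hairpin 3 level (-0.02). None of the 4 lay on 1 side of the control on all 3 hairpins. Their activity, the splicing of Xbp1 and the translation of Atf4 were not measured here.

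ER-associated degradation returns misfolded proteins to the cytosol for destruction, and all 4 of its members went both ways. Herpud1, a ubiquitin-domain component of the complex, had signals of 10509 in the control and 7769, 12913 and 9354 with hairpins 1 to 3 (-0.34, 0.32 and -0.14). The signal of Edem1, which directs misfolded glycoproteins to it, was 991, 645, 1140.3 and 1251, lowest on hairpin 1 (-0.53). Sel1l, the adaptor of the complex, had signals of 872, 821, 601 and 816, and hairpin 2 alone was low (-0.51). Syvn1, its ubiquitin ligase HRD1, had signals of 15367, 14574, 16560.4 and 11621, and hairpin 3 was the lowest (-0.37).

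Of the translocation genes, Sec61b, a subunit of the channel through which new chains enter the ER, had signals of 67943 in the control and 57517, 79363 and 74317 with hairpins 1 to 3 (-0.15, 0.25 and 0.16). Its dimmer probe gave -0.15, 0.17 and 0.11. Ssr1, a subunit of the translocon-associated complex, had signals of 16656, 11294, 20811 and 9129. It was lower on hairpins 1 and 3 (-0.47 and -0.84) and higher on hairpin 2 (0.34), with a mean of -0.32 ± 0.60. The other probes for Ssr1 agreed in sign on each hairpin, at -0.47, 0.28 and -0.92 for the next brightest and -0.76, 0.73 and -0.22 for the dimmest.

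The order of the arrays after scaling was counted over all members. The lowest array was hairpin 1 for 10 of 32 members, hairpin 2 for 6 and hairpin 3 for 7, and the control for 9. Over all 13565 genes tested it was hairpin 1 for 3049, hairpin 2 for 3449, hairpin 3 for 3322 and the control for 3745. The highest was hairpin 3 for 15, hairpin 2 for 13, the control for 3 and hairpin 1 for 1, Sel1l. Over all genes, hairpin 3 was highest for 4614, hairpin 2 for 3414, the control for 3336 and hairpin 1 for 2201. The median gap between the highest and the lowest hairpin was 0.27 for the chaperones, 0.70 for the Atf4 branch and 0.38 for all genes tested.

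Other genes of the same pathways were then read from lists that are not members. Of 32 other Atf4 targets and amino acid response genes, 31 were tested, and limma called 0. Their medians were 0.11, 0.64 and 0.49 on hairpins 1 to 3. By the rule of size, 1, 18 and 14 of 31 were at least 1.5-fold higher on hairpins 1 to 3, where 4.05%, 7.28% and 9.68% of all genes were. The highest means were those of Fgf21, a stress hormone gene, and Cth, the gene of the cysteine-making enzyme cystathionine gamma-lyase. Fgf21 had signals of 65.6 in the control and 69.9, 172 and 240.5 with hairpins 1 to 3, and Cth 1266, 1379, 3360.0 and 3046. In both, hairpin 1 lay near the control and hairpins 2 and 3 well above it. The lowest means were those of the amino acid transporter gene Slc38a2 (14713, 13343, 11846 and 10961) and of Cbs, the gene of cystathionine beta-synthase (94.1, 167, 84.3 and 42.2). Slc38a2, itself known as an Atf4 target, thus went the other way on all 3 hairpins. Within the list, 14 of 31 were above the control on all 3 hairpins and 1 below, against 27.6% and 24.6% of all genes.

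Without the control array the same list gave medians of 0.49 for hairpin 2 minus hairpin 1, 0.48 for hairpin 3 minus hairpin 1 and -0.003 for hairpin 3 minus hairpin 2. At least 1.5-fold higher were 13, 10 and 1 of 31, against 8.18%, 8.35% and 9.72% of all genes. Aminoacyl tRNA synthetases, which charge tRNAs and many of which Atf4 is known to raise, followed with smaller differences. Of 18 listed, 17 were tested, with medians of 0.14, 0.47 and 0.35 on hairpins 1 to 3, and 13 of 17 lay above the control on all 3 hairpins, against 27.6% of all genes. By the rule of size 0, 2 and 5 of 17 were higher, against 4.05%, 7.28% and 9.68%, so that on hairpins 1 and 2 this count was near the background. Iars was highest by the mean, with signals of 7999.7, 9800.3, 11599 and 13296 (0.57 ± 0.19), and Cars was next at 0.52 ± 0.20. Wars (-0.10 ± 0.28) and Qars (-0.04 ± 0.01) were lowest.

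The CARE core was in 8 of 27 promoters of the other Atf4 list and in 5 of 11 of the synthetases. Genes with a CARE core at large showed less. Of 304 tested genes with it, 12, 35 and 40 were at least 1.5-fold higher on hairpins 1 to 3 (40 is 13.2%). Of 10477 tested genes with a promoter but no CARE core it was 3.97%, 7.04% and 9.39%. The medians of the 304 genes were -0.003, -0.03 and 0.09, so that on each hairpin most genes with these letters in the window lay near the control or below it. The medians of the 10477 genes without the core were -0.004, 0.008 and 0.06.

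Lists on the ER side stayed close to the median of all genes. Of 31 tested other ER folding genes, medians were -0.05, 0.11 and 0.08, and 0 were at least 1.5-fold higher on any hairpin. Of all genes, 4.05%, 7.28% and 9.68% were that much higher on hairpins 1 to 3. Tmx1, a membrane-bound thioredoxin gene, had the highest mean (0.33 ± 0.09), followed by the glucosidase gene Mogs (0.26 ± 0.13). Ero1a, the gene of the oxidase that recharges disulfide isomerases and known to respond to hypoxia as well, had the lowest mean (-0.44 ± 0.44), with signals of 201, 132, 202 and 111. Fkbp7, a prolyl isomerase gene, was below the control on all 3 hairpins (-0.38 ± 0.12). Other ER-associated degradation genes (26 tested) had medians of -0.004, -0.04 and 0.13, from Ubxn4 (-0.48 ± 0.07) and Man1b1 (-0.22 ± 0.12) to Ube2j1 (0.27 ± 0.18) and Nploc4 (0.29 ± 0.09).

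Translocation, signal peptidase and oligosaccharyl transferase genes (34 tested) had medians of -0.04, 0.08 and 0.01. Stt3b, a catalytic subunit of the transferase, was lowest, with signals of 5621 in the control and 2112, 5214 and 3668 with hairpins 1 to 3, and Srp54a was next (-0.31 ± 0.41). Ostc (0.36 ± 0.02), another transferase subunit, and Sec11c (0.22 ± 0.11), a signal peptidase gene, were highest. Cytosolic and mitochondrial chaperones (18 tested) had medians of 0.08, 0.35 and 0.19, and 17 of 18 were higher on hairpin 2 than on hairpin 1, where 7254 of 13565 genes were. The list had Hspd1 (0.44 ± 0.21) and Hspa4 (0.41 ± 0.11) highest and the heat-inducible Hspa1a (-0.60 ± 0.12) and Bag3 (-0.21 ± 0.17) lowest.

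A last list held other stress sensors, cleavage proteases and eIF2 regulators, 21 tested, with medians of -0.06, 0.03 and 0.09. Creb3l1 was the extreme. It encodes OASIS, an ER membrane transcription factor related to Atf6 that supports collagen secretion in bone cells. Its signal was 2103 in the control and 856, 1856 and 360.4 with hairpins 1 to 3, so that hairpin 3 was lowest, hairpin 1 next and hairpin 2 near the control (mean -1.29 ± 1.18, limma adjusted p = 0.964). Gadd45a, a growth arrest gene, was below the control on all 3 hairpins (-0.77 ± 0.26), with signals of 5842, 2741, 3228 and 4073. Bbc3, the gene of the pro-apoptotic protein PUMA (0.54 ± 0.46), and Atf6b (0.31 ± 0.11) were highest. No gene of these lists passed limma's adjusted threshold.

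**Figure D5:**
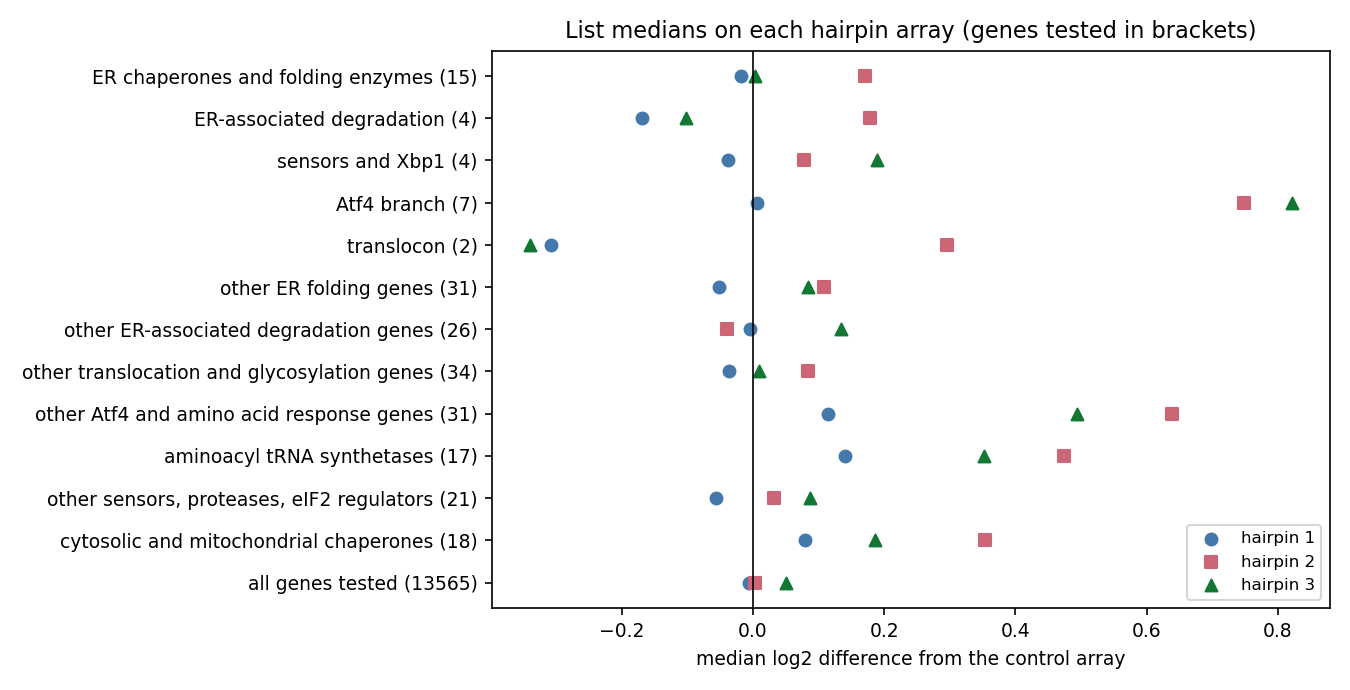
Median log2 difference from the control array (horizontal axis) of each gene list on hairpins 1 to 3, with the number of genes tested in brackets. The Atf4 branch, the other Atf4 and amino acid response genes and the aminoacyl tRNA synthetases have medians of 0.35 or more on both hairpins 2 and 3. Hairpins 2 and 3 also lie to the right of hairpin 1, at smaller values, for most of the remaining lists and for all genes tested. The exceptions are the translocon, with hairpin 3 to the left of hairpin 1, and the other ER-associated degradation genes, with hairpin 2 to the left.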

How the data were processed

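RNA of 4 MSC cultures was measured on 4 one-colour (Cy3) arrays of 1 slide. Per the file headers, the authors extracted the images in Feature Extraction (Agilent, version 11.5.1.1, protocol GE1_1105_Oct12, build mm9), and the deposited processed signal is an intensity after background subtraction within an array. In the authors' deposited series table each array has this intensity multiplied by 1 factor, linear and uncentred, and how the factors were chosen is unknown.

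Features of a probe were averaged as log2 values and 28026 of 55681 probes were named through RefSeq accessions. The log2 of each array's 75th percentile was subtracted. Kept were probes well above background either on the control or on all 3 hairpins, with the brightest for each gene. A gene at background on a hairpin could thus enter through the control and count as lower there, also in the shares of all genes. The 3 hairpin arrays were compared with the control array by limma 3.58.1 (R 4.3.3) over all genes, two-sided, with Benjamini-Hochberg adjustment, and the code was tested on simulated data. The number of arrays limits the precision.

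The members and lists were chosen with earlier results of these data known. The 1.5-fold rule, the comparisons between hairpins and the motifs were chosen after values were seen. All members are described. From each other list, the 2 highest and the 2 lowest by mean difference among genes above background on all 4 arrays are named. Alternatives were quantile normalization, median centring, normexp on the median spot signal (offset 50) with quantile normalization, the series table, no filter, a filter on all 4 arrays, the mean over probes, removal of outlier features, an intensity trend and each hairpin left out.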

Additional observations from a re-analysis of the deposited data

How the results depend on the processing

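Members called stayed at 0 under all 12 alternatives, and genes called higher at 0. The 47 genes called lower, none of them a member, became 75 with quantile normalization and 0 with normexp and quantile normalization, with no filter, with the filter on all 4 arrays, with an intensity trend and without any 1 of the 3 hairpins (0 to 0); the cause was not tested. The medians of the chaperones and of the Atf4 branch, and their difference, moved by less than the SD between hairpins (0.10, 0.45 and 0.41) under every alternative. This is a weak check. The SD comes from the same 3 hairpins that are left out in turn, and that of the Atf4 branch is nearly as large as its median. The Atf4 median was 0.79 without hairpin 1, 0.40 without hairpin 2 and 0.37 without hairpin 3, against 0.52 with all. The chaperone median was 0.10, -0.03 and 0.05 in the same order, against 0.04. With a 2-fold rule in place of 1.5-fold (both this and 1.25-fold were chosen after seeing the data), Atf4 branch members counted higher were 2 on hairpin 2 and 2 on hairpin 3, and chaperones 0 on hairpin 2. With a 1.25-fold rule, Atf4 branch members counted higher were 5 on hairpin 2 and 7 on hairpin 3, and chaperones 1 and 2. Hyou1, the 1 chaperone counted on hairpin 2, was not counted with median centring or with normexp (0 each). Among members, the mean differences of Edem1, Hsp90b1 and Pdia6, all close to 0, changed sign under some scaling or probe choice. When 1 hairpin was left out, the mean of 13 of 32 members changed sign under at least 1 choice, all of them genes that went both ways: Hspa5, Hsp90b1, Pdia6, Dnajb9, Manf, Herpud1, Syvn1, Edem1, Xbp1, Ern1, Atf6, Ddit3 (0.12 to -0.04) and Ppp1r15a (0.10 to -0.10). No paired analysis was possible because the control has 1 array and the hairpin numbers name target sequences.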
